A study of Rattus norvegicus with 183 samples.

Results

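The 6 genes Foxb1, Barhl1, Nkx2-1, Sim1, Hcrt and Pmch, which mark neurons of the mammillary body and the hypothalamus, were followed through RNA-seq libraries of the rat posterior ventral tegmental area. Foxb1, Barhl1, Nkx2-1 and Sim1 encode transcription factors, and Hcrt and Pmch encode neuropeptide precursors. The genes were chosen by name, and they are 6 of the 38354 genes in the deposited expression table. The libraries were made from polyA RNA of this midbrain region, named for its dopamine neurons, in outbred rats of the heterogeneous stock. GEO describes 183 samples, and all but the 31 labelled as removed have a column of values. The labels give no treatment, genotype, age or sex, so there are no treatment groups and the comparisons are between animals. The one label that divides the animals is the form of the identifier in the sample title, which is hexadecimal or decimal. The members were described over the libraries with at least 10 CPM (counts per 1e6 counts of the library) of Th, the gene of tyrosine hydroxylase. These are 87 libraries with a hexadecimal identifier, 53 with a decimal one and 1 with another form, and 11 libraries with values fell below that level. Single libraries are named by a replicate number, which follows the order of the series and says nothing about the animal, except the one highest in Sim1, called the Sim1-high library.

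The mammillary body and the lateral hypothalamus lie in front of the ventral tegmental area. Foxb1, Barhl1 and Sim1 are expressed in developing and adult mammillary and premammillary neurons, and Nkx2-1 sets the identity of the ventral hypothalamus. Orexin neurons (Hcrt) and melanin-concentrating hormone neurons (Pmch) have their cell bodies in the lateral hypothalamus and send axons to the ventral tegmental area, where dopamine neurons receive them. Slc17a6 encodes the vesicular glutamate transporter VGLUT2, which fills the synaptic vesicles of most glutamate neurons in the hypothalamus and in the subcortical brain at large.

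The libraries with Th had totals of 15.2 to 57.2 M (1e6) estimated counts, with a median of 24.2 M. A count of 0 allows up to 3 counts, which is 0.0525 to 0.198 CPM (median 0.124 CPM), and this limit covers counting error only. Th itself was 577 to 3934 CPM in them (median 1820 CPM). The other 11 libraries, 1 hexadecimal and 10 decimal, had 1.33 to 3.47 CPM of Th, the gene that divides them, and 26.9 to 44.1 CPM of 8 other dopamine neuron genes summed, against 770 to 3712 CPM in the libraries with Th. They also held 2297 to 2551 CPM of 5 cortical and hippocampal neuron genes summed, against 4.91 to 1140 CPM in the libraries with Th, so their content goes against the tissue label. They enter no fit here. A few libraries with Th also stand apart in the genes followed here. Replicate 88 had the highest Slc17a7, a cortical and hippocampal vesicular glutamate transporter, with 1064 CPM, replicate 64 had 607 CPM, and the Sim1-high library is labelled as recovered from an unknown label. Results that rest on replicate 88 and the Sim1-high library are given with and without them. In such dissected tissue, fewer cells of a type and less RNA per cell cannot be told apart, and nothing separates a difference between animals from a difference in the piece taken.

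Foxb1, a forkhead factor of the developing mammillary body, lies on the span chr8:79288161-79290781 of the rat assembly GRCr8. It was 0.276 CPM in the lowest, 2.18 CPM in the median and 12.9 CPM in the highest of the libraries with Th, and none of them was at 0. It reached at least 1 CPM in 95.7% of these libraries. In the 11 libraries without Th it was 0 in 10, and the remaining one held 1 count (0.0215 CPM). The lowest library with Th was therefore above the highest without Th. The highest values belonged to replicate 88 (12.9 CPM) and the Sim1-high library (6.70 CPM), and the next library had 4.50 CPM.

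Barhl1, a BarH-like homeobox factor of mammillary, subthalamic and other glutamate neurons, lies at chr3:32639283-32646605. It was 0 in the lowest, 0.303 CPM in the median and 47.9 CPM in the highest library with Th, and 19 of these libraries (13.5%) reached 1 CPM. The upper part of its range came from few libraries. Replicate 88 had 47.9 CPM (820 counts) and replicate 64 had 42.0 CPM (666 counts), followed by replicate 81 with 7.26 CPM and the next library with 2.88 CPM. Slc17a7 was 1064, 607 and 108.9 CPM in replicates 88, 64 and 81 in that order, against a median of 22.5 CPM for the whole cortical and hippocampal list. Without Th, Barhl1 reached at most 0.190 CPM (5 counts). Whether cortical or hippocampal tissue has a part in these values was not tested.

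Nkx2-1, a homeobox factor of the ventral hypothalamus that is also made by interneurons born in the basal forebrain, lies at chr6:79731677-79735952. It was 0 in the lowest, 0.0607 CPM in the median and 10.2 CPM in the highest library with Th. It was 0 in 48 of these libraries and at or under 3 counts in 86, and 13 reached 1 CPM. The values were concentrated in few libraries: replicate 88 had 10.2 CPM, replicate 98 had 5.80 CPM and the Sim1-high library had 5.31 CPM, and the next had 2.59 CPM. The 11 libraries without Th were in a narrow band, with 0.172 CPM in the lowest, 0.282 CPM in the median and 0.389 CPM in the highest, and none was at 0. Their median was thus above that of the libraries with Th, while their highest was far below the high libraries with Th.

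Sim1, a bHLH-PAS factor of hypothalamic neurons, lies at chr20:55409814-55489450. It was 0 in the lowest, 0.458 CPM in the median and 5.74 CPM in the highest library with Th, and 28 libraries (19.9%) reached 1 CPM. In the libraries without Th it was at most 0.0860 CPM, under the limit that a count of 0 allows. The highest library was hexadecimal, and replicates 11, 26, 42 and 2, all decimal, followed with 3.64, 3.48, 3.43 and 3.21 CPM. Replicate 88 came next with 2.63 CPM, and replicate 64, which had high Barhl1, had no Sim1 count. The libraries high in Sim1 were thus partly others than those high in Barhl1 and Nkx2-1.

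Hcrt, the precursor of orexin A and B, lies at chr10:86190289-86191524 and was close to the counting limit throughout. It was 0 in the lowest, 0.0735 CPM in the median and 0.685 CPM in the highest library with Th. No library reached 1 CPM, 29 were at 0 and 35 had more than 3 counts, and the largest count in any of them was 18. Without Th the highest value was 0.152 CPM (4 counts). A difference in Hcrt between most of these libraries was not detectable at this depth.

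Pmch, the precursor of melanin-concentrating hormone, lies at chr7:24399404-24400720 and was measured in every library. It was 0.300 CPM in the lowest, 1.49 CPM in the median and 3.69 CPM in the highest library with Th, and 80.9% of the libraries reached 1 CPM. It was 0.120 to 0.602 CPM without Th (median 0.305 CPM). Its highest value was 2.48 times its median, against 5.91 times for Foxb1 and 158 times for Barhl1, and its top library was replicate 6, not one of those named above. The whole Pmch gene (1317 bases) lies inside the span of Parpbp, but the levels of the pair did not move together over libraries (r = -0.0334). Foxb1 shares 701 bases with the long noncoding RNA gene LOC120094195 (r = 0.489), and Nkx2-1 shares 898 bases with LOC102552092 (r = 0.691). These overlaps are of whole gene spans and the counting strand is not stated. Whether reads were shared between the overlapping genes was not tested.

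**Figure D1:**
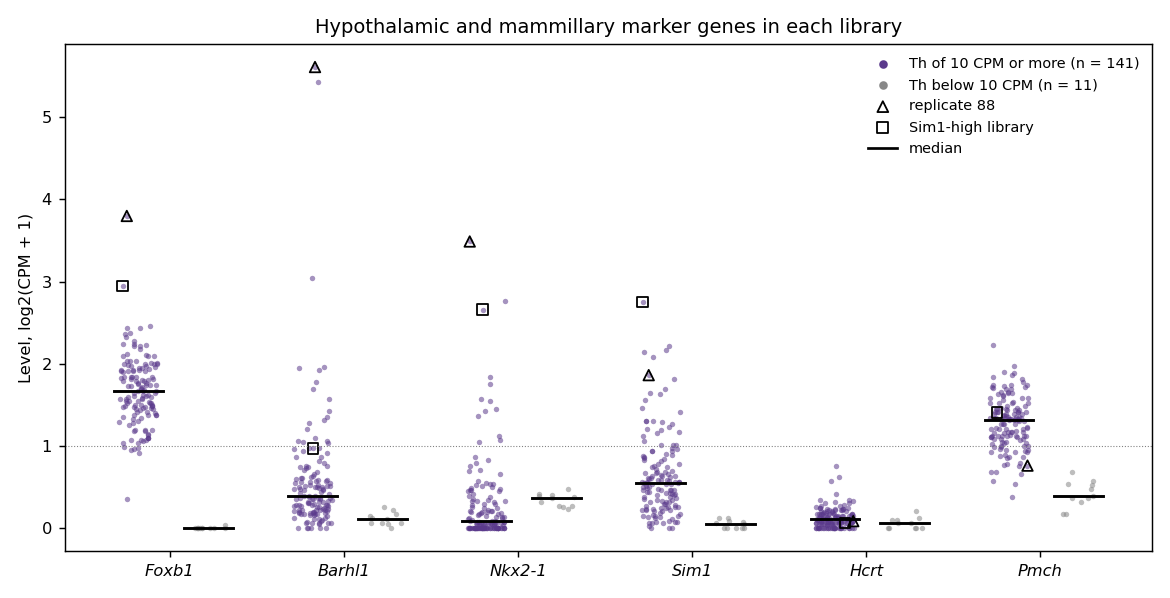
Level of each marker gene, as log2(CPM + 1), in every library with Th (purple) and without Th (grey), with black bars at the medians, the dotted line at 1 CPM and open symbols for replicate 88 and the Sim1-high library. Foxb1 and Pmch form 1 broad band each, while Barhl1 and Nkx2-1 lie near 0 in most libraries with a few far above.

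Promoter windows, 250 bases before to 50 after a transcript start, were found in RefSeq (GRCr8) for 3 of the 6 members (Nkx2-1, Sim1 and Hcrt) and for Slc17a6. The windows of Nkx2-1 and Sim1 are shown because these 2 genes moved together over libraries, and that of Slc17a6 because Sim1 moved with it. The windows of Nkx2-1 and Sim1 begin inside the annotated gene span, at another transcript start than the position in the deposited table. The motifs searched on both strands were TAATTG (a homeodomain core), CACTTG (the core named for NKX2 factors), TACGTG (the core named for SIM factors) and TATAAA (the TATA box). They occur in 8.20%, 14.1%, 3.49% and 14.2% of 33469 windows of this length. Capitals mark the matches. The Nkx2-1 window is chr6:79734818-79735117 on the minus strand, the Sim1 window chr20:55410327-55410626 on the plus strand and the Slc17a6 window chr1:110348197-110348496 on the plus strand.
Nkx2-1: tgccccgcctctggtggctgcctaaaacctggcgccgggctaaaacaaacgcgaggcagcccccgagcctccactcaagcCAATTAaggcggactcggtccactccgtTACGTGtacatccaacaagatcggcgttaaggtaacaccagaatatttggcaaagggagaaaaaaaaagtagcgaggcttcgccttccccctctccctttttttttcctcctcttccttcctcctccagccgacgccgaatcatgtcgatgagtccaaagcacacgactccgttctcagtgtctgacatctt
Sim1: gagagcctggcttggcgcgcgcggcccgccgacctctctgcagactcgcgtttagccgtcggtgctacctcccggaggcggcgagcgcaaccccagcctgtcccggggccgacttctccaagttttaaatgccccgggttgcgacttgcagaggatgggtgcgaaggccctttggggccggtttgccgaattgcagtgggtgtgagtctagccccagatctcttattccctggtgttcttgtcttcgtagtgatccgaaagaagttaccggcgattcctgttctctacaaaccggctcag
Slc17a6: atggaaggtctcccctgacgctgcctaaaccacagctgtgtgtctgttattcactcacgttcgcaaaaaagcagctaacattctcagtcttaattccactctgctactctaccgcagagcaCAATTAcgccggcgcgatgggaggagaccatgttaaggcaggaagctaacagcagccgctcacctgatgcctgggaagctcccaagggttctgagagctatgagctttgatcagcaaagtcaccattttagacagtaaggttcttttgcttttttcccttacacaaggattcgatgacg
The Nkx2-1 window holds TAATTG once, as its reverse complement at position -170, and TACGTG once at position -142, counted from the transcript start. The Slc17a6 window holds TAATTG once, as its reverse complement at position -129. None of the 4 motifs was found in the Sim1 window, which says only that these letters are not there. The Hcrt window, not shown because Hcrt was near the counting limit, holds TACGTG once, as its reverse complement at position -72, and TATAAA once at position -29. A match is a description of the letters and not of a bound site.

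Over all the libraries with Th, the 3 hypothalamic factors Foxb1, Nkx2-1 and Sim1 rose and fell together. In the decimal libraries alone no pair was called, and r of Nkx2-1 was 0.197 with Foxb1 and 0.0721 with Sim1. Barhl1 was called with Nkx2-1 through replicate 88 alone, and no pair with a peptide gene was called. Pearson r and Spearman rho were computed on log2(CPM + 1) for 15 pairs of members, 6 pairs with Slc17a6 and 6 with Th, 27 relations in all, each with a permutation p from 100000 resamples (two-sided). The smallest p that these resamples can give is 1e-05. A limma slope with identifier format as a covariate (n = 140), Benjamini-Hochberg adjusted over all 19118 genes, was fitted in both directions of a pair, and the larger adjusted p is given. Of the 10 pairs among the 5 members that passed the filter on low values, 4 were called at an adjusted p below 0.05. For orientation, the share of all genes called was 23.6% in the fit on Foxb1, 11.6% on Barhl1, 17.7% on Nkx2-1, 22.7% on Sim1 and 22.5% on Pmch. Hcrt did not pass the filter, which asks for 0.5 CPM in 10% of the libraries.

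Foxb1 and Nkx2-1 had the highest correlation among the pairs, r = 0.540 and rho = 0.346 (permutation p = 1e-05 and 3e-05, limma adjusted p = 6.87e-09). It was r = 0.635 in hexadecimal and 0.197 in decimal libraries, 0.429 without the 2 libraries farthest in Foxb1, 0.426 without replicate 88 and 0.357 without replicate 88 and the Sim1-high library. Of the 10 libraries highest in Foxb1, 6 were among the 10 highest in Nkx2-1. The pair thus held without the libraries that stand apart, and its slope did not pass the test in decimal libraries alone.

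Nkx2-1 and Sim1 followed with r = 0.425 and rho = 0.295 (permutation p = 1e-05 and 0.00035, limma adjusted p = 2.07e-06). Their r was 0.631 in hexadecimal and 0.0721 in decimal libraries, 0.397 without the 2 libraries farthest in Nkx2-1 and 0.280 without replicate 88 and the Sim1-high library. The decimal libraries highest in Sim1 were low in Nkx2-1: replicates 11, 26 and 2 had no Nkx2-1 count and replicate 42 had 0.635 CPM. Foxb1 and Sim1 had r = 0.390 and rho = 0.310 (permutation p = 2e-05 and 0.0003, limma adjusted p = 0.000100), with r = 0.439 in hexadecimal and 0.338 in decimal libraries. Without replicate 88 and the Sim1-high library their r was 0.276. Of these 3 pairs, Foxb1 and Sim1 had the smallest gap in r between the formats, and the difference between formats was not tested for any pair.

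Barhl1 and Nkx2-1 were also called, with r = 0.282 (permutation p = 0.00838, limma adjusted p = 0.0147), but rho was 0.0221 (permutation p = 0.792). Without replicate 88, the highest library in both genes, r was 0.0136 and the limma adjusted p of Nkx2-1 on Barhl1 was 0.997. The call therefore rests on that library. Barhl1 with Foxb1 had r = 0.176 with it and -0.0765 without it, and neither this pair nor Barhl1 with Sim1 (r = 0.164, rho = 0.198) passed the adjusted test.

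Pmch had small negative correlations with Sim1 (r = -0.173, permutation p = 0.04), Barhl1 (r = -0.170, p = 0.0443 by permutation) and Nkx2-1 (r = -0.138, permutation p = 0.103), and r = -0.00416 with Foxb1. No pair with Pmch passed the adjusted test. The limma adjusted p was 0.117 on Pmch and 0.123 on Sim1 for the pair with Sim1. Hcrt had r between -0.0752 and -0.0104 with the other 5 genes, and the fit on Hcrt called 0 of 19119 genes at an adjusted p below 0.05 (692 at an unadjusted p below 0.05). The peptide genes did not move with each other (r = -0.0104). Over all 15 pairs the mean r was 0.0870 and the median r was -0.0104, so the 6 genes did not behave as 1 group.

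**Figure D2:**
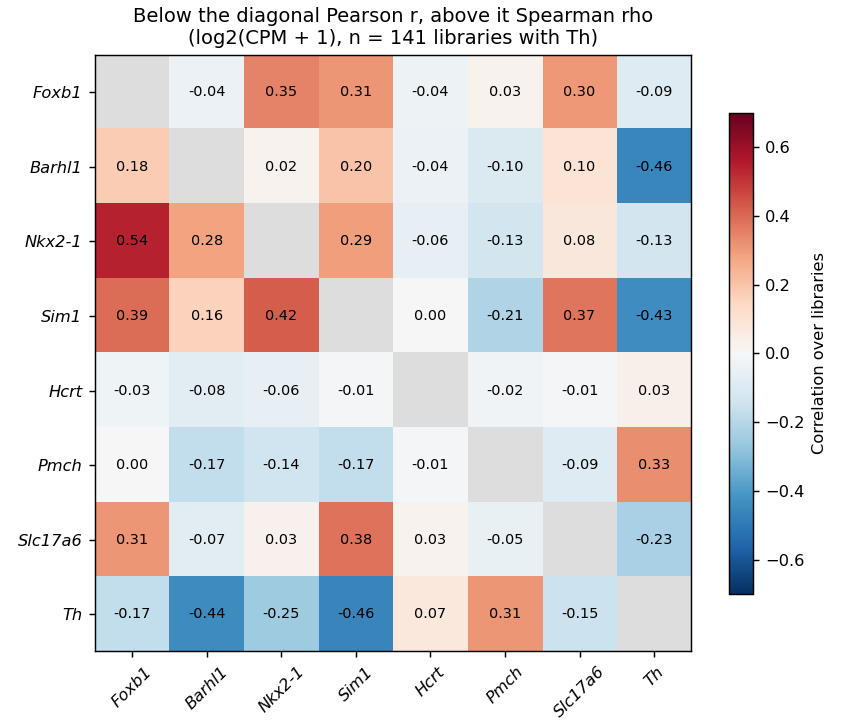
Correlation over the libraries with Th for the 6 marker genes, Slc17a6 and Th, on log2(CPM + 1), with Pearson r below the diagonal and Spearman rho above it. Foxb1, Nkx2-1 and Sim1 have the highest values of rho among the pairs of members (0.295 to 0.346), and Barhl1 and Sim1 have the most negative values with Th.

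**Figure D3:**
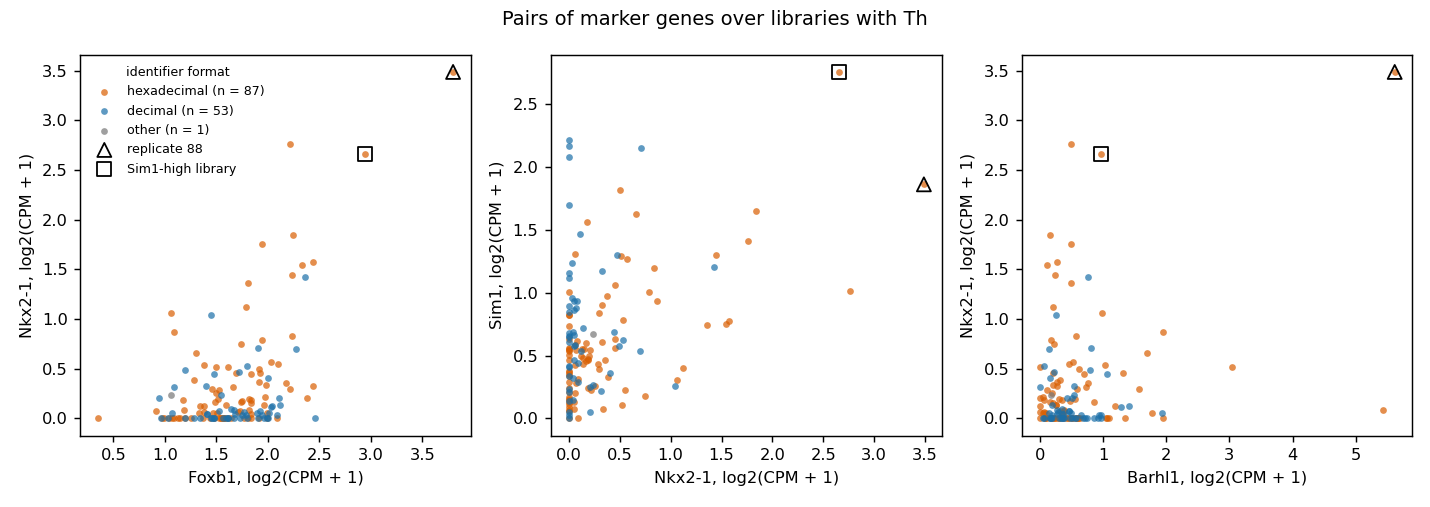
Level of Foxb1 against Nkx2-1 (left), Nkx2-1 against Sim1 (middle) and Barhl1 against Nkx2-1 (right), in log2(CPM + 1), 1 point per library with Th, orange for hexadecimal, blue for decimal and grey for the other identifier form. Replicate 88 (triangle) lies at the upper right corner in the left and right panels, and the Sim1-high library (square) is at the top in the middle.

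Slc17a6 was 35.1 CPM in the lowest, 155 CPM in the median and 388 CPM in the highest library with Th, and Sim1 and Foxb1 were higher where it was higher. Sim1 rose by 0.32 ± 0.07 (limma slope ± SE, n = 140, log2 units of CPM + 1 per log2 unit of Slc17a6), with an adjusted p of 3.21e-05. Foxb1 rose by 0.23 ± 0.06 (limma adjusted p = 0.000582). These 2 of the 5 members in the fit were called, against 48% of all genes, of which 13.1% rose and 34.8% fell. Of the genes called, 27.4% rose, and with median-of-ratios size factors 45.7% rose. Because 1 is added to each CPM, a slope understates the change of genes as low as Sim1.

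The correlation with Slc17a6 was r = 0.381 and rho = 0.374 for Sim1 (permutation p = 3e-05 and 1e-05) and r = 0.308 and rho = 0.301 for Foxb1 (permutation p = 0.00028 and 0.00045). Within hexadecimal and decimal libraries r was 0.262 and 0.509 for Sim1 and 0.246 and 0.469 for Foxb1. Without the 2 libraries farthest in Slc17a6 it was 0.385 for Sim1 and 0.278 for Foxb1, and without replicate 88 and the Sim1-high library it was 0.400 and 0.326. Both relations were thus positive in each format, and the Foxb1 call was lost in the hexadecimal libraries alone (slope 0.20 ± 0.09, limma adjusted p = 0.0654). The difference between the formats was tested as an interaction. It was -0.20 ± 0.13 for Sim1 and -0.05 ± 0.12 for Foxb1 (limma adjusted p of 1.00 each), and 0 of 19118 genes passed that test (573 at an unadjusted p below 0.05).

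Barhl1, Nkx2-1 and Pmch were not called on Slc17a6. Their slopes were -0.08 (95% interval -0.28 to 0.13), 0.05 (-0.09 to 0.20) and -0.03 (-0.12 to 0.06), with limma adjusted p of 0.559, 0.580 and 0.648. Hcrt had a slope of 0.01 (95% interval -0.03 to 0.04) in a fit without the filter. Pearson r with Slc17a6 was -0.0743 for Barhl1, 0.0297 for Nkx2-1, -0.0527 for Pmch and 0.0267 for Hcrt, with permutation p between 0.378 and 0.754. Nkx2-1 thus moved with Foxb1 and Sim1 but had no detected relation to Slc17a6, and the difference between the members' slopes was not tested.

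**Figure D4:**
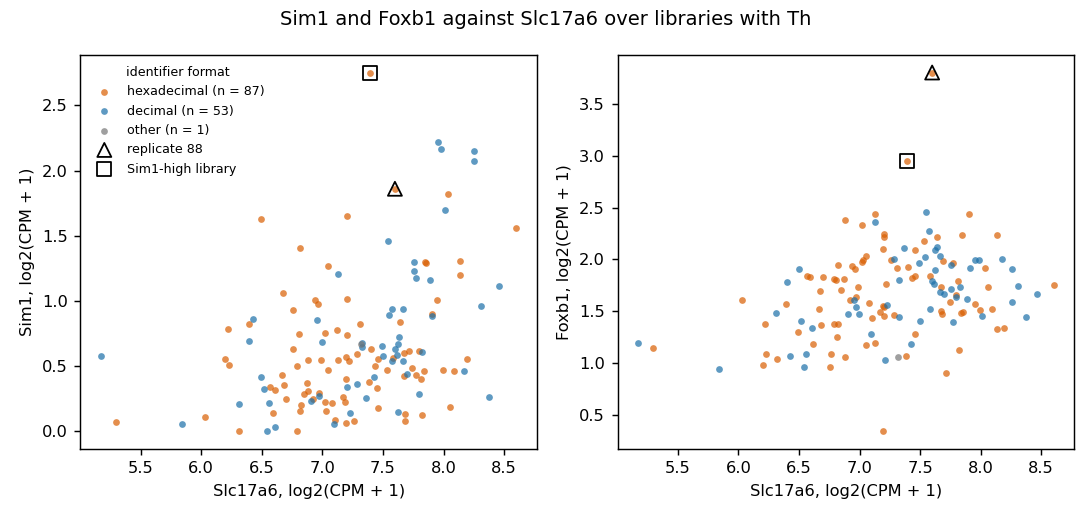
Level of Sim1 (left) and Foxb1 (right) against Slc17a6, in log2(CPM + 1), 1 point per library with Th, orange for hexadecimal, blue for decimal and grey for the other identifier form. Both rise with Slc17a6 (r = 0.381 and 0.308), and replicate 88 (triangle) and the Sim1-high library (square) lie at middle Slc17a6 levels.

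With Th the order was another. Barhl1 fell by 0.74 ± 0.11 per log2 unit of Th (limma adjusted p = 1.66e-08), Sim1 fell by 0.47 ± 0.08 (adjusted p = 2.48e-07) and Nkx2-1 fell by 0.36 ± 0.09 (adjusted p = 0.000288), all by limma with n = 140. Pmch rose by 0.20 ± 0.05 (limma adjusted p = 0.000737), the one member that was higher where Th was higher. Foxb1 had a slope of -0.15 ± 0.07 that was not called (limma adjusted p = 0.0817). The 4 members called compare with 43.6% of all genes, of which 15% rose and 28.5% fell with Th. Of the genes called, 34.5% rose, and with median-of-ratios size factors 46.1% rose.

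Pearson r with Th was -0.441 for Barhl1 (rho = -0.457) and -0.462 for Sim1 (rho = -0.435), each with a permutation p of 1e-05. In hexadecimal and decimal libraries it was -0.540 and -0.418 for Barhl1 and -0.545 and -0.325 for Sim1. Pmch had r = 0.309 (rho = 0.326, permutation p = 0.00018 and 0.00012), with 0.386 in hexadecimal and 0.192 in decimal libraries. For Nkx2-1 r was -0.247 (permutation p = 0.00397) but rho was -0.131 (permutation p = 0.121), and r was -0.423 in hexadecimal and -0.0641 in decimal libraries. Without replicate 88, which had 650 CPM of Th and the lowest sum of the dopamine neuron genes (1420 CPM), r of Nkx2-1 was -0.163 and that of Foxb1 was -0.0909. Without the 2 libraries farthest in Th, r was -0.455 for Barhl1, -0.428 for Sim1, -0.278 for Nkx2-1 and 0.287 for Pmch. Hcrt had r = 0.0719 (permutation p = 0.394). Slc17a6 and Th themselves had r = -0.148.

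**Figure D5:**
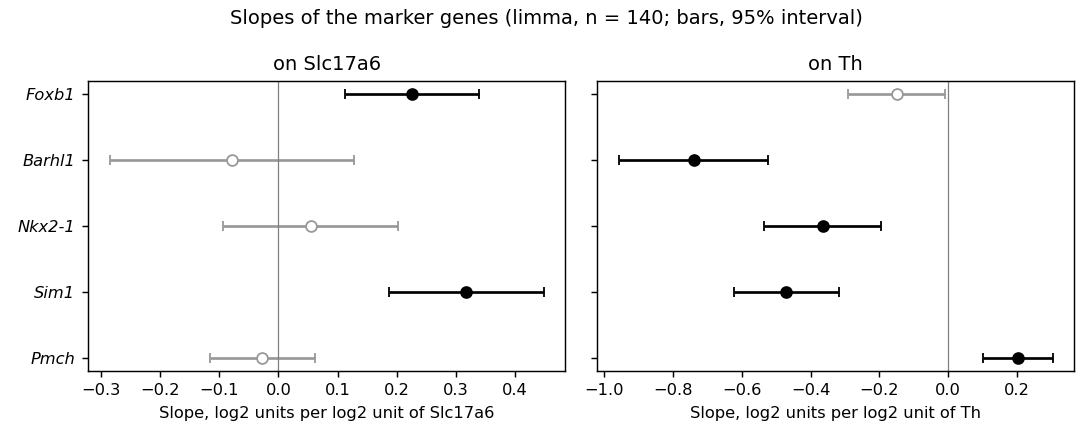
Slopes of the 5 members that passed the filter on Slc17a6 (left) and on Th (right), in log2 units of CPM + 1 per log2 unit, with 95% intervals, filled where the limma adjusted p was below 0.05. Sim1 is the member whose interval lies above 0 on Slc17a6 and below 0 on Th.

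Between the identifier formats the members differed little. Nkx2-1 was higher in hexadecimal libraries, with a median of 0.121 CPM against 0.0351 CPM in decimal libraries and a difference of 0.24 ± 0.09 on the log2 scale (limma adjusted p = 0.0386). This 1 of 5 members called compares with 31.1% of all genes. Of the genes called, 38.0% were higher in hexadecimal libraries, and with median-of-ratios size factors 49.4% were. The call was lost in several alternatives, among them leaving out the relabelled or recovered libraries (0.16, limma adjusted p = 0.158). The medians in hexadecimal and decimal libraries were 2.16 and 2.19 CPM for Foxb1, 0.288 and 0.342 CPM for Barhl1, 0.413 and 0.543 CPM for Sim1 and 1.52 and 1.40 CPM for Pmch. The formats also differed in Th, which was higher in hexadecimal libraries by 0.33 ± 0.09 (limma adjusted p = 0.00203), and in depth, with a median total of 22.9 M in hexadecimal and 27.5 M in decimal libraries.

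The 12 lists of cell type markers were set beside each member to describe what rose and fell with it. Among the mammillary genes, 5 of 10 rose with Slc17a6 and 2 fell, with a median slope of 0.14 against -0.04 over all genes. Those that rose include Foxb1 and Sim1, and also Lmx1a (0.19, not called in hexadecimal libraries) and Uncx (0.17, called in both formats). Otp, a homeobox factor of hypothalamic neuroendocrine neurons, fell by 1.47 and Lhx5 fell by 0.72. Without replicate 88 the count was 6 higher and 2 lower. In hexadecimal libraries it was 3 and 2, and in decimal libraries 6 and 2. The mammillary genes therefore did not move as 1 block with the glutamate transporter.

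The counts of the other lists on Slc17a6 are set beside the 13.1% of all genes that rose and the 34.8% that fell, and the lists were not tested against each other or against all genes. Of 5 subthalamic genes, some of which, such as Barhl1 and Lmx1a, are also in the mammillary list, 4 rose and none fell, with 1 rising in hexadecimal and 4 in decimal libraries. In the interpeduncular and habenular list 5 of 5 genes fell, and in the serotonin list 4 of 4 fell. Red nucleus and motor neuron genes rose in 3 of 4 and fell in 1. The remaining counts of genes that rose and fell were 0 and 3 of 7 for lateral hypothalamic genes, 1 and 3 of 5 for histamine neuron genes, 1 and 3 of 12 for other hypothalamic genes, 0 and 3 of 3 for other glutamate neuron genes, 1 and 1 of 9 for dopamine neuron genes, 0 and 2 of 5 for cortical genes and 1 and 0 of 3 for receptors of orexin and melanin-concentrating hormone.

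Of all genes, 14.3% rose and 3.39% fell with Nkx2-1. The gene that moved most among the lists was Hdc, histidine decarboxylase, which makes histamine in tuberomammillary neurons of the posterior hypothalamus. Hdc rose by 1.30 ± 0.12 per log2 unit of Nkx2-1 (limma adjusted p = 6.32e-17), with r = 0.688 and rho = 0.543. The slope was 1.50 without replicate 88, 1.58 without replicate 88 and the Sim1-high library, 1.17 in hexadecimal and 2.40 in decimal libraries, and called in each. Replicate 98 had 65.7 CPM of Hdc beside 5.80 CPM of Nkx2-1, and the Sim1-high library and replicate 88 had 8.83 and 6.25 CPM of Hdc, against a median of 0.315 CPM. The 3 libraries highest in Nkx2-1 were thus far above the median in Hdc. Maob, which breaks down histamine metabolites and other amines, rose by 0.27 ± 0.05 (limma adjusted p = 1.48e-05), with no call in decimal libraries. Of the 5 histamine neuron genes 1 fell, Slc18a2, the vesicular monoamine transporter that dopamine neurons share (-0.21), and it was no longer called without replicate 88 (-0.13). Prph (-0.17) and Gad1 (-0.16) also had negative slopes, which were not called. The median slope of the list was -0.16, against 0.02 over all genes, and it was 0.02 without replicate 88. The histamine neuron genes therefore did not rise as 1 block with Nkx2-1.

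Other factors of the lists followed Nkx2-1 too. Barhl2 rose by 0.44 ± 0.04 (limma adjusted p = 2.47e-14), with a slope of 0.31 that was not called in decimal libraries, and Sim2 rose by 0.14, with no call in either format. Of the 9 dopamine neuron genes 6 fell and none rose, with En1, a homeobox factor that dopamine neurons need, falling by 0.41. Without replicate 88, 3 of 9 fell, in decimal libraries none did, and with Th as a covariate 1 of the other 8 did. The fit in decimal libraries called very few of all genes, so a missing call there does not show that a relation is absent. The fit with Th also called fewer genes than the main fit. The median slope of the list was -0.24 in the main fit and -0.15 without replicate 88. It was -0.045 in decimal libraries and 0.025 with Th as a covariate. Among all genes called on Nkx2-1 80.8% rose, and with median-of-ratios size factors 60.3% rose. Slc17a7 (1.06) and Neurod2 (0.54), of the cortical list, also rose with Nkx2-1. Neither was called without replicate 88, where the slopes were 0.66 (limma adjusted p = 0.0869) for Slc17a7 and 0.21 (limma adjusted p = 0.282) for Neurod2, and neither was called in decimal libraries or with Th as a covariate.

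Of all genes, 12.7% rose and 10.8% fell with Foxb1. Of the 9 other mammillary genes in the fit 3 rose and 1 fell, Otp (-0.78, limma adjusted p = 0.0251). The count was 3 higher and none lower without replicate 88. Of the 5 histamine neuron genes 1 rose, Hdc, and 1 fell, Gad1 (-0.56, limma adjusted p = 0.000376). Barhl2 rose by 0.41, Hdc by 0.75 and Lmx1a by 0.28. Barhl2 was called in both formats, Hdc in hexadecimal libraries and Lmx1a in neither. The serotonin neuron genes moved the other way: Tph2, tryptophan hydroxylase 2, fell by 1.46 ± 0.24 (limma adjusted p = 4.08e-06), the serotonin transporter Slc6a4 fell by 1.33 and the factor Fev fell by 0.49. The count was 3 of 4 in hexadecimal libraries, in decimal libraries and without replicate 88. Of the 9 dopamine neuron genes, Slc6a3 rose (0.64) and En1 fell (-0.34), and the count was 4 higher and none lower without replicate 88, 1 higher and 3 lower in hexadecimal libraries and 1 higher and none lower in decimal ones. Hcrtr2, the orexin 2 receptor, rose by 0.34 (limma adjusted p = 0.000163). None of 7 lateral hypothalamic genes was called on Foxb1.

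Of all genes, 14.8% rose and 7.89% fell with Sim1. Barhl2 rose by 0.35 ± 0.05 (limma adjusted p = 3.4e-07), in both formats. Hdc rose by 0.62, with a slope of 1.09 in hexadecimal and 0.03 in decimal libraries, of which the first was called. Of the 5 histamine neuron genes Hdc was the 1 that rose, and 1 fell, Slc18a2 (-0.35, limma adjusted p = 0.000163), which is also in the dopamine neuron list. Sim2, a paralog of Sim1, rose by 0.16 and was not called in decimal libraries (0.098). Of the 9 dopamine neuron genes 5 fell and none rose, without replicate 88 as well. In hexadecimal libraries 6 fell, and none was called in decimal libraries or, of the 8 other than Th, with Th as a covariate. Of the 4 serotonin genes 2 fell, with none called in hexadecimal libraries and 1 in decimal ones. Of the genes called on Sim1, 65.2% rose, and with median-of-ratios size factors 54.3% rose.

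With Barhl1, 9 of 9 dopamine neuron genes fell and none rose, beside 6.57% and 4.99% of all genes. The count was 9 of 9 without replicate 88, 8 of 9 in hexadecimal and none in decimal libraries. The fit in decimal libraries called very few of all genes, so its counts of none do not show that a relation is absent there. The median slope of the dopamine neuron genes was -0.44 in decimal libraries, against -0.32 over both formats. With Th as a covariate 5 of the other 8 fell. Slc17a7 rose by 1.32 ± 0.17 (limma adjusted p = 1.09e-09) and Neurod2, a factor of cortical and cerebellar glutamate neurons, by 0.83 ± 0.08 (adjusted p = 2.3e-17 by limma). Both were still called without replicate 88 and without the 6 libraries above 100 CPM of Slc17a7, with slopes of 1.31 and 0.65 in the last case. Neither was called in decimal libraries (0.70 and 0.48). Of the 4 serotonin genes 3 rose, with 4 without replicate 88, 1 in hexadecimal and none in decimal libraries. No mammillary gene rose with Barhl1 and 2 of 9 fell, Lmx1a (-0.33) and Foxa1 (-0.29), both of which dopamine neurons also express.

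With Pmch, 8 of 9 dopamine neuron genes rose and none fell, with Ddc, the aromatic amino acid decarboxylase, rising by 0.59 ± 0.13 (limma adjusted p = 0.000476). Of all genes, 6.68% rose and 15.8% fell with Pmch. The count was 4 of 9 without replicate 88, 4 of 9 in hexadecimal libraries and none in decimal libraries or with Th as a covariate. The orexin 1 receptor Hcrtr1 rose by 0.45 (limma adjusted p = 0.000783), by 0.29 with Th as a covariate, and its slope of 0.20 was not called in decimal libraries (limma adjusted p = 0.443). Ddc was not called in decimal libraries (0.35) or with Th as a covariate (0.18). Mchr1, the receptor of melanin-concentrating hormone, rose by 0.17 (limma adjusted p = 0.0146). Mchr1 and Rfx4, which fell by 0.22, were the lateral hypothalamic genes called, of 6, and neither was called within a format or with Th as a covariate. Of the genes called on Pmch, 29.7% rose, and with median-of-ratios size factors 46.8% rose.

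The genes most like each member were taken as the 5 with the highest r over the libraries with Th among those with a positive r in both formats. For Nkx2-1 the first was LOC100911923 (r = 0.910), a long noncoding RNA gene 2253 bases away, followed by Hdc (0.688), Barhl2 (0.635), Tcap (0.603) and Prkag2 (0.579). Without replicate 88, LOC100911923 and Hdc remained first and second (r = 0.906 and 0.702), and Barhl2, Tcap and Prkag2 were at ranks 97, 56 and 50 (r = 0.487 to 0.502). LOC100911923 was 0 to 6.14 CPM (median 0.0666 CPM). For Sim1 they were the homeobox factor Onecut2 (0.720), the forkhead factor Foxd2 (0.711), LOC108351105 (0.698), the mineralocorticoid receptor gene Nr3c2 (0.549) and Lsm11 (0.536). Onecut2 and Foxd2 had r of 0.770 and 0.804 in decimal libraries, where Sim1 and Nkx2-1 had 0.0721.

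Barhl1 was most like Slc25a48, a mitochondrial carrier gene (r = 0.878, with 0.903 in hexadecimal and 0.673 in decimal libraries). Sdc1, a syndecan, followed (0.785, with 0.839 in hexadecimal and 0.322 in decimal libraries). Without replicate 88, r was 0.820 for Slc25a48 and 0.688 for Sdc1. Replicate 64, the next highest in Barhl1, was still among those libraries. Tspan5 (0.729), LOC120096970 (0.728) and Medag (0.723) had r of 0.0779 to 0.145 in decimal libraries. Foxb1 was most like Slc6a11, the GABA transporter GAT-3 (0.541), then Nkx2-1, Gfod1 (0.536), Itih3 (0.522) and Aff3 (0.519), and Pmch most like Ctxn2 (0.501), Sdhaf4 (0.471), Pfdn4 (0.468), Bspry (0.467) and Gap43 (0.460). For Foxb1, Slc6a11 and Itih3 stayed at ranks 1 and 4 without replicate 88, while Nkx2-1 was beyond rank 100 (r = 0.426) and Gfod1 and Aff3 were at ranks 51 and 20. Slc6a11 and Itih3 are genes that astrocytes express, and their levels of 23.3 to 407 and 169 to 678 CPM were present in every library. These values are a description, since all points share depth scaling and tissue composition.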

How the data were processed

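The deposited table holds log2 values per gene and library, as its name says. The authors used kallisto 0.48, per the submitters' processing notes (genome build: not given in the sources used here). The values were taken to be log2(estimated count + 1), from the values: of those that back-transform to less than 100, 55.7% are whole to within 0.001. They were back-transformed, divided by the library total (CPM) and set on log2(CPM + 1). Slopes were fitted with limma 3.58.1 (R 4.3.3, trend) on genes with at least 0.5 CPM in 10% of libraries with Th, with identifier format as a covariate. The library with another identifier form was left out, so n = 140. Scripts were tested on simulated data. Each library is 1 animal by its label, and p-values measure only the spread between these samples. The members and the 12 lists (82 entries, 81 in the file) were chosen with earlier results of these data known. Named genes are the members, Slc17a6, Th, list genes and the 5 genes of highest r per member with positive r in both formats. Values of 1 list gene are not reported here. Neighbouring genes and single libraries named beyond these were chosen after their values were seen. Alternatives planned were pseudocount, scaling, filter, covariates, library subsets and ranks. Leaving out replicate 88, alone or with the Sim1-high library, and adding library total were chosen after seeing the data.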

Additional observations from a re-analysis of the deposited data

How the results depend on the processing

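Of the 2 calls on Slc17a6 and the 4 on Th, each held in all alternatives that fitted the gene, except within single formats. Barhl1, Nkx2-1 and Sim1 were not in the fit where genes needed a mean log2 value of 1, so their calls were not tested there. The Foxb1 slope on Slc17a6 was 0.20 and not called in hexadecimal libraries. On Th, the slopes of Nkx2-1 (-0.038), Sim1 (-0.38) and Pmch (0.12) were not called in decimal libraries, and Foxb1 (-0.30) was called in hexadecimal ones. The Nkx2-1 difference between formats lost its call with no filter (0.24), without relabelled or recovered libraries (0.16), on ranks (0.12), with library total as a covariate (0.23) and without replicate 88 and the Sim1-high library (0.18). The slope of Nkx2-1 on Barhl1 turned to -0.0091 in decimal libraries and -0.015 without replicate 88 and the Sim1-high library, and lost its call in 6 others. Pairs called were 0 in decimal libraries and 0 where genes needed a mean log2 value of 1, which left 1 pair, against 4. Genes called fell to 5393 on Slc17a6 (hexadecimal only, against 9175), 2862 on Th (decimal only, against 8328) and 2569 between formats (library total, against 5938).

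Genes called on Barhl1 were 2210, and 1318 without libraries above 100 CPM of Slc17a7, 1155 without the 2 farthest libraries, 1 in decimal libraries, 6508 with Th as a covariate, 1225 without replicate 88 and 1265 without both. On Nkx2-1 they were 3383, against 1263 without relabelled or recovered libraries, 5147, 5245 and 5544 without libraries high in Slc17a7, the 2 farthest or replicate 88, 10 in decimal and 2187 in hexadecimal libraries, and 1680 with Th as a covariate. On Sim1 4332 became 2673, 2448 and 247 without relabelled libraries, in decimal libraries and with Th as a covariate. On Pmch 4304 became 7072 with median-of-ratios factors, 2434 and 623 in decimal and hexadecimal libraries, 2756 on ranks and 1873 with Th as a covariate. On Foxb1 4504 became 2098 in decimal libraries. The cause of these changes was not tested, beyond fewer libraries in the subsets. Depth limits Hcrt and Nkx2-1, whose median counts are at or under 3. No paired analysis was possible because the labels hold 1 tissue and replicate numbers given in accession order.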
